A study of Homo sapiens with 4 samples.

Results

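The homeobox and PAX genes outside the HOX clusters were taken as the protein-coding genes whose symbol is PAX, LHX, IRX, DLX, OTX, MSX, MEIS, PBX, ALX, BARX, VSX, EMX or GSX with a number, or NKX with a pair of numbers, together with those of the SIX-family. They numbered 71 of the 19881 coding genes with a canonical start site in hg19, and a promoter was the start site with 1000 bp on either side. The data are MBD-seq libraries of HEK293, a human embryonic kidney cell line, in which methylated DNA fragments were pulled down with GST-MBD2 and sequenced. There were 4 conditions with 1 library each. One was labelled Untreated cells, and the others had received dCas9-SunTag, an sgRNA against the CpG island of ISG15 and an antibody-fused DNMT3A-DNMT3L effector that was wild type, K844E or R887E, named Ab-3A3L (WT), Ab-3A3L (K844E) and Ab-3A3L (R887E). These cells were transfected transiently, and those carrying every plasmid were sorted after 3 days. The values below come from the authors' list of 12864 peaks that were new in the wild type library, and the other 3 libraries were not analysed here. No condition had the plasmids without a DNA methyltransferase. Within this list alone, the effect of transfection and sorting cannot be told apart from that of the enzyme. With 1 library per condition there is no replicate error, and the values are descriptions without a test. The list holds no expression values, so the cell line could not be checked against marker genes.

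Homeobox proteins bind DNA through the homeodomain and PAX proteins through the paired domain, and both set the identity of cells in the embryo. In the embryonic kidney, PAX2 and LHX1 are needed for the organ to form, PAX8 acts together with PAX2, and SIX2 keeps the progenitor cells. The promoters of these genes lie in long CpG islands, which in many cell types are held silent by Polycomb proteins and carry little DNA methylation. DNMT3A adds methyl groups to unmethylated CpGs, and DNMT3L stimulates it.

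The sequences shown are 200 bp around the summit, the point of a peak with most fragments, at the member with the highest fold of its group where that window holds no untranslated exon. PAX2 stands for PAX7, which did not meet this condition, and was chosen after its values were seen. IRX2, the member with most CpGs among those without a peak at the promoter, is shown by the 200 bp upstream of its start site. CpGs, the sites of methylation, are in capitals, and all are written 5′ to 3′ on the strand of the gene.
SIX4 (chr14:61190407-61190606, hg19, minus strand): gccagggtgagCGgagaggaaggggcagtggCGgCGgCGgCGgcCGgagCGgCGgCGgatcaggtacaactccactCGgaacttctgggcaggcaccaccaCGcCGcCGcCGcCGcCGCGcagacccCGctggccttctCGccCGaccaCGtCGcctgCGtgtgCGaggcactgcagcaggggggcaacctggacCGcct
LHX4 (chr1:180198827-180199026, hg19, plus strand): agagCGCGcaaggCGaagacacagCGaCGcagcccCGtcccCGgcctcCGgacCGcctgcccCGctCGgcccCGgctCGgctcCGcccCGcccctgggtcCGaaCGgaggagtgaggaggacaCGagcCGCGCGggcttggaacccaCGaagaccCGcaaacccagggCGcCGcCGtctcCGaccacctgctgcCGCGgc
PBX3 (chr9:128508543-128508742, hg19, plus strand): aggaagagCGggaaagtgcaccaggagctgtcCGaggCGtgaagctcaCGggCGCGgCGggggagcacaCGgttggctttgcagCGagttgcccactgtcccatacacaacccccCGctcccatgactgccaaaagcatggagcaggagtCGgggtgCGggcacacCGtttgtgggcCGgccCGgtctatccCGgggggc
ALX4 (chr11:44330525-44330724, hg19, minus strand): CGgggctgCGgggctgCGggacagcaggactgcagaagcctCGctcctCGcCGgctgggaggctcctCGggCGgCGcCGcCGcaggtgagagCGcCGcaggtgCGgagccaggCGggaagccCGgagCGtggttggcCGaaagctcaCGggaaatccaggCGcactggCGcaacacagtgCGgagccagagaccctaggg
PAX2 (chr10:102504219-102504418, hg19, plus strand): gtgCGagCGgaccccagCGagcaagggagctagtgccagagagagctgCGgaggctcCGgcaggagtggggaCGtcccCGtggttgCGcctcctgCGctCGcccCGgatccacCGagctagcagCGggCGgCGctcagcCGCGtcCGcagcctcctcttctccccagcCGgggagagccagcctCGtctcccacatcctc
IRX2 (chr5:2751792-2751991, hg19, minus strand): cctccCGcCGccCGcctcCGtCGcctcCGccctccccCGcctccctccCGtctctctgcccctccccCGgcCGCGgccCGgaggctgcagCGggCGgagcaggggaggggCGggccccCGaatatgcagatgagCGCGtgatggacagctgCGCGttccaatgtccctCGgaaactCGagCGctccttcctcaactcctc
These windows held 25 CpGs at SIX4, 29 at LHX4, 16 at PBX3, 22 at ALX4 and 20 at PAX2. The IRX2 window held 23, which lies within the range of the windows with a peak. The SIX4 window is in coding exon 1, the ALX4 window in an intron and those of LHX4, PBX3 and PAX2 lie upstream of the start site.

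A new peak overlapped the promoter of 30 of the 71 genes, or 42.3% (95% exact binomial interval 30.6% to 54.6%, counting error only). Of all coding promoters 42.1% had one. The background differs when CpG islands, rebuilt from the genome sequence, are taken into account. An island overlapped 68 of the 71 promoters, against 14377 of all 19881. The 3 exceptions, among them PAX4, had no peak. Of the 68 island promoters, 30 had a new peak, or 44.1% (32.1% to 56.7%), against 57.6% of all coding promoters with an island. Under stricter island criteria (500 bp or longer, 55% GC, CpG observed/expected 0.65) it was 30 of 66, or 45.5%, against 64.7%. The 30 promoters held 38 peaks, with 1 peak at 22 of them and 2 at the other 8.

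By family, a peak was listed at 3 of 9 PAX, 3 of 6 SIX-family, 4 of 8 LHX, 3 of 6 IRX, 1 of 3 MEIS, 2 of 4 PBX, 5 of 14 NKX, 1 of 2 MSX, 1 of 2 BARX, 3 of 6 DLX, 2 of 2 EMX, 1 of 2 GSX and 1 of 3 ALX promoters. Neither of the OTX promoters had one. With so few genes per family, the intervals of these shares overlap widely, as with 50% for LHX (15.7% to 84.3%) and 33.3% for PAX (7.49% to 70.1%). Beyond the promoter but within 10000 bp of the start site, 11 more genes had a peak, namely BARX1, DLX1, DLX4, IRX3, LHX5, MEIS2, NKX2-2, NKX2-6, OTX2, PAX5 and SIX3. In all, 41 of 71 genes, or 57.7%, had a peak within that distance, against 48.5% of coding genes. More than 1 peak lay there in 19 genes, or 26.8%, against 11.2% of coding genes. These backgrounds include coding genes without an island promoter.

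The authors' fold is the number of fragments at the summit over a background. From the fold and the p-value, the whole number of fragments and the background rate, which is the number of fragments that the control predicts there, were recovered by the formulas of MACS2. For each gene the peak with the highest fold was used. At the 30 genes the fold had a median of 5.06, with quartiles of 4.31 and 6.57, against 8.26 over the 8364 coding promoters with a peak. At least the median fold of the whole list, 7.45, was reached at 6 of the 30, or 20% (7.71% to 38.6%), and at 61.5% of all coding promoters with a peak. Among them were SIX4, PBX3, MSX2, PAX7 and MEIS1.

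The low folds came with high background rates. Fragments were compared among listed peaks only, and at a higher rate more fragments are needed for listing. The median number of fragments at the summit was 25.5 at the 30 genes and 17 over all coding promoters with a peak. Fragments above the background rate had a median of 19.8 against 15.8. Neither comparison is at like rates. Over all listed peaks the median was 20 fragments at rates from 2 to below 4, and 25 at rates from 4 to below 8. The background rate itself had a median of 4.04, with quartiles of 1.80 and 6.19, against 0.720 with quartiles of 0.611 and 1.58 for all. A rate of at least 2 was found at 21 of the 30, or 70.0%, and at 20.5% of all coding promoters with a peak. The genome-wide rate of 0.611, at which no local excess of control reads was counted, applied to 2 genes, among them PBX3, or 6.67% (0.818% to 22.1%), against 34.8% of all. For 20 of the 30 the rate was set by control reads in the 10000 bp around the summit, with a median of 215 reads where the genome-wide rate corresponds to 34.8. Of all coding promoters with a peak 34.7% had their rate set in this way, with a median of 72 reads. The control reads stand for untreated cells only if the authors used that library as the control, which the description as new peaks compared with untreated cells implies.

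**Figure D1:**
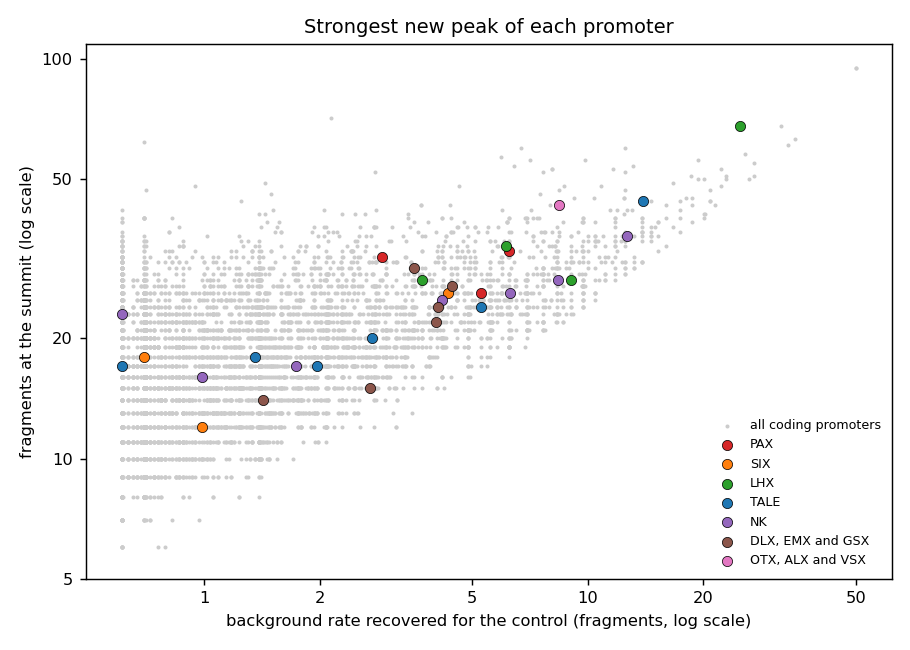
Each point is the strongest new peak of a promoter, with the background rate recovered for the control on the x axis and the fragments at the summit on the y axis, both on log scales. Grey points are all 8364 coding promoters with a peak and coloured points the 30 homeobox and PAX genes by group, which lie mostly at rates of 2 or more, up to LHX3 at 25.

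A higher background raises the number of fragments a region needs to be listed. Among all peaks at the genome-wide rate the fewest fragments were 6. At rates from 4 to below 8, where 10 of the 30 genes lie, the fewest were 14, and at rates from 8 to below 16, with 5 genes, they were 22. A promoter without a listed peak therefore has no value of its own here. Methylation before treatment, a gain below the threshold and no gain cannot be told apart for the 41 genes without a peak.

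Genes with a peak had more CpGs at the promoter. The promoters of genes with a peak held a median of 145 CpGs and those without 124, against 130 and 63 over all coding genes. Of the 37 genes with 100 to 149 CpGs, 15 had a peak, or 40.5% (24.8% to 57.9%), against 65.7% of all coding promoters in this class. With 150 to 199 CpGs it was 7 of 14, or 50% (23% to 77%), against 79.0%. With 200 or more it was 6 of 8, or 75% (34.9% to 96.8%), against 78.8%. The 2 of these 8 without a peak were IRX1 and IRX2. Within each of these classes the median background rate at the genes with a peak was above that of all promoters with a peak, at 2.70 against 0.702, 4.42 against 0.878 and 6.22 against 1.38. These classes were chosen after the data were seen.

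The new peaks took up a small part of long islands. The island with most CpGs at each promoter had a median length of 2510 bp for the 68 genes and 893 bp for all coding genes with an island. Where the promoter had a peak, a median of 23.7% of this island lay in new peaks, against 67.2% over all coding promoters with a peak. The share was 7.87% at LHX2, with an island of 10290 bp, and 96.8% at DLX6, with one of 588 bp. That DLX6 island begins 558 bp downstream of the start, and a smaller one over the start site held no new peak. The width of the strongest peak was similar, with a median of 617.5 bp against 594 bp. A peak covered the start site itself in 12 of the 30 genes, or 40.0%, against 64.4% of all coding promoters with a peak. The median distance of the summit from the start site was 435 bp against 279 bp. At 7 of the 30 genes, ALX4, PAX2 and PBX3 among them, the summit of the strongest peak lay outside the promoter window. Summits lay upstream of the start in 12 genes and in coding exons, untranslated exons and introns in 6 genes each.

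Among the PAX genes, PAX7, a regulator of muscle stem cells, had the highest fold. Its peak on chromosome 1 from 18957537 to 18957865 had a fold of 8.47, a −log10 q of 18.9 and 32 fragments over a rate of 2.90, with the summit 356 bp downstream of the start in untranslated exon 1. PAX2, the renal and optic regulator, had a peak from 102503982 to 102504462 on chromosome 10, with a fold of 4.71 and 33 fragments over a rate of 6.22, and its summit 1020 bp upstream. A further PAX2 peak, from 102505301 to 102506085, covered the start site with a fold of 4.43. PAX6, which directs eye development, had the lowest fold of the 3 at 4.31, from 26 fragments over a rate of 5.27. Of the PAX2, PAX5 and PAX8 subgroup, PAX5, the B cell regulator, had peaks in an intron at 6621 and 7596 bp from its start, and PAX8, a kidney and thyroid regulator, had none within 10000 bp. The other PAX genes without a promoter peak were PAX1, PAX3, PAX4 and PAX9. PAX4 had 7 CpGs in its promoter, the fewest of all 71.

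The SIX-family proteins act with EYA coactivators downstream of PAX genes. SIX4 had a fold of 11.2, higher than that of 82.4% of the list, in a peak on chromosome 14 from 61189903 to 61190756 with 18 fragments over a rate of 0.694. That rate is the value of 1 control read at the summit. SIX5 had the lowest fold of the group at 5.08, from 26 fragments over a rate of 4.32. SIX6, an eye regulator on the same chromosome as SIX4, had no peak within 10000 bp. SIX2 had none either, and SIX3, a forebrain gene 67750 bp from SIX2, had a peak in a coding exon 2949 bp downstream of its start with a fold of 2.57.

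The LHX genes encode LIM homeodomain proteins of neurons and organ primordia. Their folds were between 2.66 and 6.19, all below the median of the list. LHX4, a pituitary regulator, had the highest at 6.19, from 28 fragments over a rate of 3.69, on chromosome 1 from 180198461 to 180199202 upstream of the start. LHX6, needed in forebrain interneurons, followed with 4.92 and 34 fragments over a rate of 6.11. LHX3, which acts with LHX4 in the pituitary, had the lowest fold of all 30 genes and the most fragments. Its peak on chromosome 9 from 139096716 to 139097106 had 68 fragments over a rate of 25, given by 36 control reads at the summit, for a fold of 2.66. LHX2, a forebrain and limb gene, had a fold of 2.89 from 28 fragments over a rate of 9.02. LHX1, LHX5, LHX8 and LHX9 had no promoter peak, although the island at LHX1 holds 622 CpGs.

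The TALE class, with an extended homeodomain, comprises the IRX patterning genes and the MEIS and PBX cofactors of HOX proteins. PBX3 had a pair of peaks with the same fold of 11.2 and with summits on either side of its start, from 128508285 to 128509018 and from 128509591 to 128510795 on chromosome 9, each with 17 fragments at the genome-wide rate. The latter covers the start site. MEIS1 followed with a fold of 8.08 from 18 fragments over a rate of 1.35. PBX4 had a fold of 3.99. IRX4, a cardiac ventricle gene, had the lowest fold of the class at 3.01 from 44 fragments over a rate of 13.9, set by 794 control reads in 10000 bp, the most of the 30 genes counted over that window. IRX5 had a fold of 5.62 from 20 fragments over a rate of 2.74, and IRX6, whose start lies 393338 bp away, a fold of 6.07 from 17 over 1.97. IRX1, IRX2 and IRX3, with 240, 250 and 195 CpGs in the promoter, were without a promoter peak, as were MEIS2, MEIS3 and PBX2. IRX3 had a peak in a coding exon 2224 bp downstream with a fold of 3.24, and MEIS2 a peak with its summit 1275 bp upstream and a fold of 5.66.

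Among the NK genes, MSX2, a BMP target in craniofacial development, had a fold of 8.57 from 16 fragments over a rate of 0.983, whereas no peak was listed within 10000 bp of MSX1. NKX2-6 had no promoter peak, and the peak listed within 10000 bp of it lay 7830 bp upstream with a fold of 7.51. BARX2 had a fold of 6.57 and BARX1 no promoter peak. NKX1-1 had the lowest fold of the group at 2.71, from 36 fragments over a rate of 12.6. Other folds in the group included 5.03 at NKX1-2, 3.72 at the cardiac gene NKX2-5 and 3.09 at NKX6-2. The promoters of NKX2-1, NKX2-2, NKX2-3, NKX2-4, NKX2-8, NKX3-2, NKX6-1 and NKX6-3 had no peak.

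DLX genes lie in facing pairs and act in the forebrain, jaw and limb. In each pair 1 gene had a promoter peak. DLX3 had a fold of 6.84 from 30 fragments over a rate of 3.53, and DLX4 none, with a peak of fold 2.50 in an intron 3305 bp from its start. DLX2 had a fold of 6.19 from 14 fragments over a rate of 1.42, and 6 peaks lay within 10000 bp of its start, of which the strongest, from 172963734 to 172964132 on chromosome 2, had a fold of 10.6 at the genome-wide rate and lies downstream of the gene. DLX1, on the other side of these peaks, had no promoter peak. DLX6 had the lowest fold at 4.32 from 15 fragments over a rate of 2.70, and DLX5 had no peak. The cortical genes EMX1 and EMX2 had folds of 4.94 and 5.16, and GSX1 one of 4.58, with 24, 27 and 22 fragments. GSX2 had none. Of the paired-like genes, ALX4, a skull and limb gene, had a fold of 4.68 from 43 fragments over a rate of 8.39, and ALX1, OTX1, OTX2 and VSX1 had no promoter peak.

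Members lying within 500000 bp of each other formed 9 neighbourhoods of 21 genes, of which 8 had a promoter peak, against 22 of the other 50. On chromosome 14, NKX2-1, NKX2-8 and PAX9 span 141628 bp, and no new peak was listed between them or within 10000 bp of the outer start sites. On chromosome 20, NKX2-4, NKX2-2 and PAX1 span 308138 bp with 2 peaks, both near NKX2-2 at 8072 bp downstream and 7880 bp upstream. The neighbours share a region and are not independent observations.

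Other regulators were set beside these genes. HOX genes had a promoter peak in 16 of 39, with medians of 5.79 for the fold and 2.64 for the background rate. Of 83 SOX, FOX, TBX and GATA genes, 36 had one, with medians of 6.68 and 1.53. A list of 81 other homeobox genes outside the HOX clusters gave 35, with medians of 5.62 and 2.91. Their shares of island promoters with a peak were 44.1%, 49.3% and 48.6%, against 57.6% of all coding promoters with an island. A list of 22 partners of the members included the EYA, DACH, LDB, LMO and TLE cofactors. It also included the PKNOX and TGIF genes, which are themselves homeobox genes of the TALE class. Of these 22 partners, 13 had a promoter peak, or 59.1% (36.4% to 79.3%) against 42.1% of all coding promoters. Their medians were a fold of 9.31 and the genome-wide rate of 0.611. Among the partners with an island promoter it was 12 of 17, or 70.6%. More than 1 peak within 10000 bp was found for 28.2% of HOX and 22.9% of SOX, FOX, TBX and GATA genes. For the other homeobox genes it was 25.9% and for the partners 31.8%, so the 26.8% of the members is not particular to them. Where the promoter had a peak, a median of 45.7% of the island lay in new peaks for HOX genes. It was 37.1% for SOX, FOX, TBX and GATA genes, 24.5% for the other homeobox genes and 62.6% for the partners. Median summit distances were 380.5, 428.5, 462 and 745 bp in this order. The low island share and the distant summits of the members were thus also seen at other homeobox genes. No difference between these lists was tested.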

How the data were processed

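The series holds 4 MBD-seq libraries of HEK293 cells, 1 per condition. According to the methods, the authors used Bowtie2 with its defaults to map the reads to hg19. FastQC, deepTools and MACS2 are also named in the submitters' processing notes, without settings. The list of the wild type library was used, whose deposited columns are those of a MACS2 peak file. The deposited fold is a ratio of the summit to its background. Further deposited columns hold −log10 of the p-value and of the q-value, and the deposited score, 10 times the −log10 q, was not used. The smallest −log10 q was 2.00. Library totals were not analysed here, so depth is known only through the recovered fragments.

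Peaks were compared with GRCh37, the build of hg19, and GENCODE release 44 lifted to it, with 1 canonical start site per coding gene. The 282 coding genes whose canonical transcript was not lifted were left out, none of them a member. Overlap of at least 1 bp was counted. CpG islands were rebuilt from unmasked sequence with 17 for each CpG and -1 for each other base. They were kept above 200 bp, at 50% GC or more and an observed/expected ratio above 0.6. This gave 51460 islands, more than the paper counted, so the island shares here do not refer to the paper's island set. Fragments and rate were solved jointly, the fold being the fragments plus 1 divided by the rate plus 1 and the p-value the upper Poisson tail beyond the fragments. All 12864 listed −log10 p were met within 0.0004. Each rate equalled the genome-wide one or an integer number of control reads, each worth 0.694 at the fragment length, counted over 253 bp, 1000 bp or 10000 bp. That MACS2 was run in this way is an inference from these values. Other gene lists were matched by symbol.

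The members and lists were chosen with earlier results of these data known. The rule named every member, with values for the 2 highest and the lowest fold of each group and for members within 500000 bp of each other. Some items are not reported here, although the counts over all genes include every member. Other values given, such as those of the remaining members with a peak, were chosen after they were seen. Shares have 95% exact binomial intervals, which cover counting error only. No p-value was computed. The steps were tested on simulated data. Alternatives covered the peak threshold, the window, the overlap, the start sites and the island criteria. Software was Python 3.11.15 with scipy 1.17.1, numpy 2.4.6, numba 0.67.0, pandas 2.3.3, pysam 0.24.0 and matplotlib 3.10.9, and samtools 1.23.1.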

Additional observations from a re-analysis of the deposited data

How the results depend on the processing

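Of 50 alternatives computed, 39 stayed within 1.5 times the value given, a limit chosen after the data were seen, and 2 of the 50 were themselves added then. The alternatives are not independent. Genes with a peak and island genes with a peak were counted apart, with the same number wherever both were computed. When the list was limited to peaks at or above its median fold, fewer by construction, 6 of the 71 genes had a promoter peak. This is a lower share than the 25.9% of coding promoters. All 6 had an island. They had 7 peaks with a median fold of 9.87, and 3 genes had more than 1 peak within 10000 bp. With a −log10 q of at least 10, 12 of the 71 genes had a promoter peak, again a lower share than the 24.9% of coding promoters. All 12 had an island, with 13 peaks and a median summit distance of 654.5 bp. More than 1 peak within 10000 bp was found for 5 genes. Over the whole list the shares were 42.3% and 42.1%. No interval was computed for the shares at these thresholds, and no difference was tested. The fold is taken over the background rate, so a limit on the fold also selects by that rate. Its median was 4.04 at the 30 genes against 0.720 over all coding promoters with a peak. In a window of 2000 bp on either side, which is longer by construction, a median of 16.9% lay in new peaks. With any start site of a coding transcript, 35 genes had a peak, adding PAX5, OTX2, MEIS2, IRX3 and DLX4, against 44.6% of coding genes. No paired analysis was possible because each condition has 1 library. Precision is limited by the absence of replicates and by summits with 25.5 fragments in the median.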
